A study of Homo sapiens with 4 samples.

Results

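Lumican (LUM), decorin (DCN), periostin (POSTN), matrix Gla protein (MGP), microfibril associated protein 4 (MFAP4) and EGF like domain multiple 6 (EGFL6) encode secreted proteins of the connective tissue matrix. These 6 of the 23364 genes in the deposited tables were taken by name, as a list. They were followed in 4 single-cell RNA samples of KhES1, an established human embryonic stem cell (hESC) line: 2 samples of undifferentiated cells kept in mTeSR-1 medium on Matrigel, and 2 samples of blastoids, which are stem cell aggregates meant to model the blastocyst. All 4 samples come from the same line. For the blastoids, aggregates formed in Aggrewell plates with the ROCK inhibitor Y27632 were embedded in a PNIPAAm-β-PEG hydrogel, fed with serum-containing DMEM and then moved to iBlastoid medium. The hESC samples are numbered 1 and 2 and the blastoid samples 3 and 4, as in the labels. The sample titles give day 0 for all 4, whereas the names of the blastoid tables give day 9, so groups were taken from the sample descriptions. No label ties a cell to a single aggregate.

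Connective tissue cells surround themselves with collagen fibrils, microfibrils and proteoglycans. LUM and DCN are small leucine-rich proteoglycans, which bind collagen fibrils and limit their lateral growth; DCN also binds transforming growth factor beta. POSTN is a matricellular protein, one that modulates cell adhesion and collagen cross-linking more than it builds the scaffold. MGP depends on vitamin K and inhibits calcification, MFAP4 binds elastic microfibrils, and EGFL6 is a basement membrane-associated integrin ligand. Fibroblasts and other mesenchymal cells are the best-known sources of most of them, while pluripotent cells and trophoblast are not typical sources.

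In GENCODE 29 on GRCh38 all 6 are protein-coding. LUM lies on the minus strand of chromosome 12 from 91102629 to 91111831, and DCN follows on the same strand from 91140484 to 91183123, with 28652 bases between them. KERA and EPYC, which encode related leucine-rich proteoglycans, lie next to them, but KERA was at 0 UMIs (unique molecular identifiers, the counted transcripts) in 3 samples with 1 UMI in blastoid 4, and EPYC had 2 UMIs in blastoid 4. MGP is also on chromosome 12, from 14881181 to 14885926 on the minus strand, wholly inside the opposite-strand gene C12orf60. POSTN spans 37562583 to 37598844 on the minus strand of chromosome 13, MFAP4 spans 19383442 to 19387240 on the minus strand of chromosome 17, and EGFL6 spans 13569605 to 13633575 on the plus strand of chromosome X. MFAP4 shares 103 bases with the opposite-strand gene MAPK7. Use of strand in the counting is not given in the sources used here, so reads of MGP and C12orf60, or of MFAP4 and MAPK7, cannot be told apart from the tables alone; in UMIs per 1000000 UMIs of the sample (CPM), C12orf60 had 1.41 in hESC 1, 1.38 in hESC 2, 4.14 in blastoid 3 and 2.87 in blastoid 4, so it too was higher in both blastoid samples, and MAPK7 lay between 9.98 and 11.6 in the 4 samples.

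Promoter sequence from RefSeq (GRCh38.p14) was matched for POSTN and EGFL6, 2 of the 6 genes, and both are shown to give the sequence ahead of these genes' starts. The POSTN stretch is 174 bases, 37598845 to 37599018 of chromosome 13 read on the minus strand, and the EGFL6 stretch is 250 bases, 13569351 to 13569600 of chromosome X on the plus strand. Each ends ahead of the annotated gene start. Capitals mark matches on either strand to TATAAA (the TATA box) or to CANNTG (the E-box, bound by basic helix-loop-helix factors).
POSTN: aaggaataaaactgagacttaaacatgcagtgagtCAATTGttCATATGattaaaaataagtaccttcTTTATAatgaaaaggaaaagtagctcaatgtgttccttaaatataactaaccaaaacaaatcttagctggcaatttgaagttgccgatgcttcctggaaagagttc
EGFL6: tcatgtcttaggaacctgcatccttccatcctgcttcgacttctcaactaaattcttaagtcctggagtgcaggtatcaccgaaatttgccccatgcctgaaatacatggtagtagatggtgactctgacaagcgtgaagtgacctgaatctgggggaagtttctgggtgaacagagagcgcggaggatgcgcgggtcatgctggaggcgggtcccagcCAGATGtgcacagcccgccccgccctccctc
The POSTN stretch held 2 E-box matches and 1 TATA match and had a GC content of 32.2%, against a median of 56.9% over the same 174-base window of 35116 promoters. Of those windows, 50.01% held an E-box match and 6.97% a TATA match. The EGFL6 stretch held 1 E-box match and no TATA match, at 54.8% GC against a median of 58.0%; 61.8% and 10.7% of the 250-base windows held these motifs. The SMAD box CAGAC, searched on both strands, matched in neither stretch, and the matches shown did not overlap each other. A match describes the letters only.

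Cells were barcodes with at least 500 detected genes: 2265 in hESC 1, 3175 in hESC 2, 2289 in blastoid 3 and 1951 in blastoid 4, or 9680 in all, with 13488703 to 18139535 UMIs per sample and a median of 4996 to 8828 UMIs per cell. Libraries of the same group shared many barcodes. The hESC samples had 1317 barcodes in common, 23 of them with at least 500 genes in both, and the blastoid samples had 1035, none of them with at least 500 genes in both. Between groups 6 to 14 barcodes were shared per pair of samples. All 6 genes gave the same calls with every shared barcode left out. That removed cells unevenly: 2239 remained in hESC 1, 1864 in hESC 2, 2283 in blastoid 3 and 910 in blastoid 4. No label says that samples of a group were separate cultures, so p-values measure only the spread between these samples.

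LUM, DCN and MGP were not listed in either hESC table and were listed in both blastoid tables. LUM was at 517 CPM in blastoid 3 and 441 in blastoid 4. The hESC tables held no LUM row. The rule by which genes were listed is not given in the sources used here: 7 and 13 genes listed for hESC 1 and hESC 2 were held by 1 barcode, 112 and 151 by 2, and 790 and 837 by 3. An unlisted gene was therefore assumed, not known, to have at most 2 counts in a table, with an upper limit of 6.30 counts, which corresponds to 0.467 CPM in hESC 1 and 0.396 in hESC 2. With 9.15 counts as the limit over both tables, LUM was at least 1400-fold higher in blastoids (edgeR quasi-likelihood test, adjusted p = 3.2e-06), and at least 918.5-fold with hESC 2 left out. These bounds rest on that assumption. In the edgeR test a gene with no row entered as 0. Here and for the other genes given such a bound, the p-value therefore does not test the bound itself. UMI counts depend on the transcript's 3′ end, so levels are compared within each gene.

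DCN, the other collagen-binding proteoglycan, had no row in the hESC tables and stood at 214 CPM in blastoid 3 and 120 in blastoid 4. Blastoid 4 was the lower of the blastoid samples. By the same limit DCN was higher in blastoids by at least 478-fold (edgeR, adjusted p = 1.7e-05), or 314-fold with hESC 2 left out.

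POSTN was listed in all 4 tables, at 0.297 CPM in hESC 1, 0.628 in hESC 2, 324 in blastoid 3 and 108 in blastoid 4. The hESC values rest on 4 and 10 UMIs, each in a different cell. Both blastoid samples were far above them, but they differed from each other more than for any other of the 6 genes. The log2 fold change was 8.65 ± 0.68 (SE, n = 2 per group; edgeR, adjusted p = 6.9e-05). It was 7.73 without blastoid 3 and 9.29 without hESC 2.

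MGP, the calcification inhibitor, had no row in the hESC tables and stood at 23.6 CPM in blastoid 3 and 11.03 in blastoid 4. By the same limit its blastoid level was at least 49.3-fold higher (edgeR quasi-likelihood test, adjusted p = 1.9e-04), or at least 32.3-fold with hESC 2 left out. Few cells carried it: 11 cells of blastoid 3 and 6 cells of blastoid 4 together held 50% or more of its UMIs in their sample.

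MFAP4, the microfibril protein, was at 1.19 CPM in hESC 1 and 0.817 in hESC 2, against 28.3 in blastoid 3 and 21.7 in blastoid 4. Samples within each group lay close together. Its log2 fold change was 4.51 ± 0.25 (SE, n = 2 per group; edgeR, adjusted p = 1.5e-05).

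EGFL6 had the smallest difference of the 3 genes that could be measured in both groups. It stood at 3.56 CPM in hESC 1, 2.58 in hESC 2, 32.4 in blastoid 3 and 13.3 in blastoid 4. Of the blastoid samples, blastoid 3 was again the higher. The log2 fold change was 2.75 ± 0.41 (SE, n = 2 per group; edgeR, adjusted p = 0.0013). Without blastoid 3 it was 2.07.

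**Figure D1:**
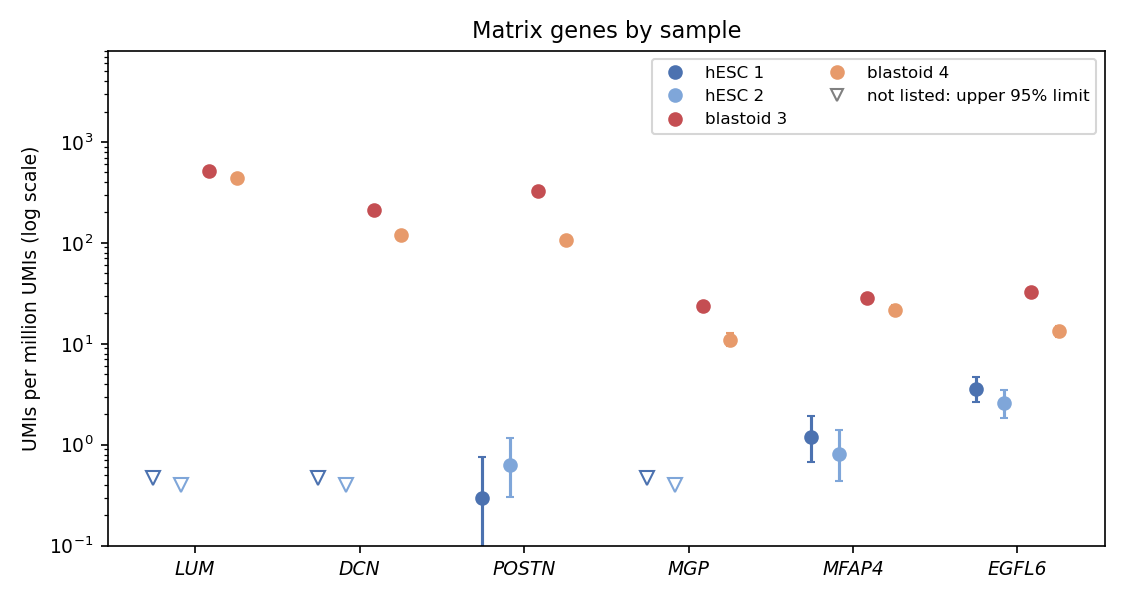
CPM of each of the 6 genes in each sample (log scale), with exact 95% Poisson intervals for counting error; open triangles mark the upper limit of a gene with no row in an hESC table. In each gene the 2 blastoid points lie above the 2 hESC points, with LUM at 517 and 441 and EGFL6 at 32.4 and 13.3.

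All 6 genes were thus higher in blastoids in the edgeR test, where 27.3% of the 16368 genes tested were called higher and 23.0% called lower at an adjusted p under 0.05. The median log2 fold change over all tested genes was 0.05, and without TMM scaling it was higher by 0.13. Together the 6 genes made up 5.04 and 4.02 CPM in hESC 1 and 2, and 1139 and 714 in blastoid 3 and 4.

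Detection in single cells was compared after thinning each cell at random to 2000 UMIs, which left out 435, 973, 108 and 42 shallower cells of hESC 1, hESC 2, blastoid 3 and blastoid 4. LUM was then detected in 40.7% of cells of blastoid 3 and 37.2% of blastoid 4, or 39.0% ± 2.49 (SD, n = 2). Before thinning the shares were 51.9% and 53.5%, so the order of the samples followed their depth. DCN was detected in 21.0% and 14.1% of thinned cells (29.3% and 26.4% before), and POSTN in 15.9% and 9.32% (21.6% and 15.6% before). The remaining genes were detected in few cells: MFAP4 was in 5.09% and 4.45% of thinned cells, EGFL6 in 3.90% and 1.57%, and MGP in 2.06% and 1.26%.

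In the thinned hESC cells POSTN was found in 0.109% and 0.0454%, MFAP4 in 0.328% and 0.0908%, and EGFL6 in 0.765% and 0.409%. The 3 unlisted genes could have been in up to 0.278% of the unthinned cells of hESC 1 and 0.198% of hESC 2. Each of the 6 genes had a higher detected share in blastoid 3 and in blastoid 4 than in any hESC sample, as did 37.1% of the 21958 genes with counts in thinned cells. The exact permutation p was 0.33 for each gene, two-sided, the smallest that 2 samples against 2 can give.

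To see which blastoid cells carried the transcripts, cells were clustered on genes outside the matrix lists, so that none of the 6 genes shaped the clusters. Cells of 3 blastoid clusters were mesoderm/mesenchyme-like: cluster 5 (led by CXCL14, SST and HGF beside matrix genes; 326 and 120 cells of blastoid 3 and 4), cluster 4 (PITX1; 527 and 473 cells) and cluster 7 (MESP1, MSGN1; 206 and 39 cells). Cluster 1 (TECRL, PRRX1; 701 and 542 cells) had 12 detected markers of the same list, but 2 cardiac or smooth muscle markers against 1 mesenchyme marker among its 10 leading genes, and is left unnamed. Cluster 7 had 11 of 15 mesoderm/mesenchyme markers detected, but also 8 of 12 pluripotent markers. Cluster 2 was trophectoderm/amnion-like (441 and 663 cells) and cluster 8 pluripotent-like (60 and 94 cells). Cluster 8 had all 12 pluripotent markers detected, though none of them was among its 10 leading genes. These cells share libraries, and the values by cluster are a description with no test.

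Clusters 1, 4, 5 and 7 together made up 76.9% of the cells of blastoid 3 and 60.2% of blastoid 4. They held 98.5% of the summed UMIs of the 6 genes in blastoid 3 and 94.98% in blastoid 4. The mean of the 2 UMI shares was 96.7% ± 2.47 (SD, n = 2). Without the unnamed cluster 1, which alone was 30.6% and 27.8% of the cells, the mesoderm/mesenchyme-like clusters held 80.9% and 64.8% of these UMIs. The 6 genes were concentrated in cluster 5 to different degrees, and cluster 5 made up 14.2% of the cells of blastoid 3 and 6.15% of blastoid 4. It held 94.4% of the MGP UMIs of blastoid 3 and 86.0% of blastoid 4, and 92.3% and 87.6% of the EGFL6 UMIs. For POSTN the shares were 83.9% and 57.8%, for MFAP4 72.9% and 59.9%, for DCN 72.1% and 42.2%, and for LUM 51.9% and 29.0%. MGP and EGFL6 UMIs thus came mostly from cluster 5 in both samples, while in blastoid 4 most UMIs of LUM and of DCN lay outside it.

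In cluster 5, LUM had a UMI in 99.4% of the unthinned cells of blastoid 3 and in all 120 cells of blastoid 4. DCN was in 94.2% and 91.7%, POSTN in 83.1% and 75.0%, MFAP4 in 42.0% and 47.5%, EGFL6 in 38.7% and 45.8%, and MGP in 23.3% and 24.2%. The median depth of these cells was 6080 and 8370 UMIs. So even where they were most frequent, MFAP4, EGFL6 and MGP had no UMI in most cells at this depth. The proteoglycans were found in nearly all.

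LUM and DCN were also frequent in clusters 1 and 4. LUM was in 59.5% and 71.2% of the cells of cluster 1 and in 63.2% and 69.1% of cluster 4, and DCN in 28.2% and 40.0% and in 26.8% and 33.4%. POSTN was lower there, at 14.7% and 18.8% of cluster 1 and 13.9% and 16.3% of cluster 4. MFAP4 was in 6.99% and 11.99% of cluster 1 and 6.07% and 9.30% of cluster 4. EGFL6 reached at most 1.06% and MGP at most 1.66% of the cells in either cluster and sample.

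Pluripotent-like cells of the blastoids were taken as a reference level, since LUM, DCN and MGP had no row in the pure hESC tables. Whether their UMIs came from RNA outside the cell or from the cells themselves was not tested. In cluster 8, at a median of 9950 and 13449 UMIs per cell, LUM had a UMI in 10.0% of cells of blastoid 3 (exact 95% interval 3.76% to 20.5%) and 10.6% of blastoid 4 (5.22% to 18.7%). DCN was in 6.67% and 4.26%, and POSTN in 10.0% and 8.51%. MGP and MFAP4 were in none of these cells, which with 60 and 94 cells leaves exact upper limits of 5.96% and 3.85%.

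Beside cluster 8, DCN had shares near or below it in the trophectoderm/amnion-like cluster 2 (3.40% and 3.62%) and in cluster 7 (2.43% and 5.13%). POSTN shares were 7.48% and 3.92% in cluster 2 and 3.40% and 5.13% in cluster 7. Cluster 8 cells were deeper, which raises shares. In CPM, DCN was at 6.32 and 7.30 in cluster 2 and 5.65 and 7.09 in cluster 7, against 6.54 and 4.01 in cluster 8. POSTN was at 22.6 and 11.6 CPM in cluster 2, above its 11.4 and 8.82 in cluster 8. It was at 4.39 and 11.8 in cluster 7. LUM in cluster 2 was at 18.6% (15.1% to 22.5%) of blastoid 3 cells and 28.7% (25.2% to 32.3%) of blastoid 4 cells. The blastoid 4 interval lay above that of cluster 8 although the cluster 2 cells were shallower, with a median of 9115 UMIs; in blastoid 3 the intervals overlapped. The LUM level was 43.3 and 70.7 CPM in cluster 2, against 9.81 and 15.2 in cluster 8. LUM in cluster 7 was found in 11.7% and 20.5% of cells, at 17.6 and 49.6 CPM, with 21 UMIs in the 39 cells of blastoid 4.

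The share of POSTN in clusters 1 and 4 overlapped the cluster 8 interval of 3.76% to 20.5% in blastoid 3, while its level did not follow that of cluster 8: it was 114 and 115 CPM in cluster 1 and 70.4 and 59.4 in cluster 4, against 11.4 and 8.82 in cluster 8. After thinning, POSTN was in 9.51% and 10.1% of cluster 1 and 5.08% and 2.13% of cluster 8. EGFL6 behaved differently from the other genes outside cluster 5. It was in 8.33% and 7.45% of the cells of cluster 8, at 8.17 and 6.41 CPM, and in 3.18% and 2.41% of cluster 2, above its share in clusters 1 and 4. The hESC samples, too, had EGFL6 in 2.03% and 1.29% of cells before thinning.

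**Figure D2:**
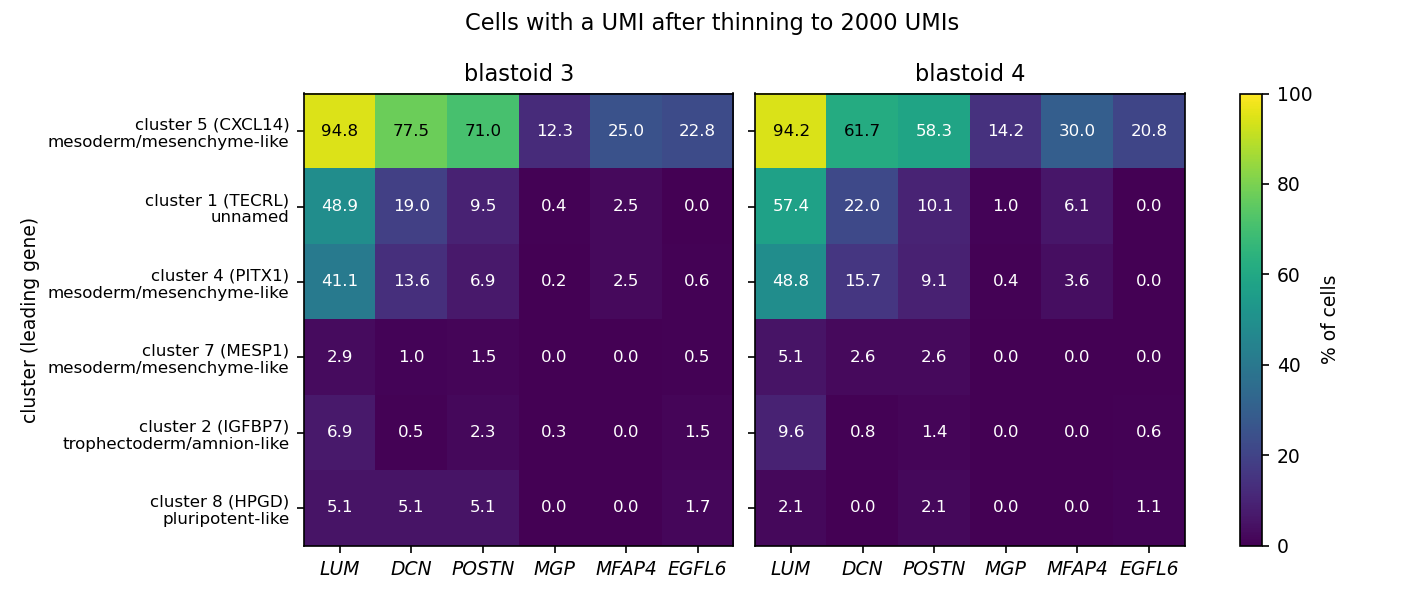
Percent of cells with a UMI for each gene, after thinning to 2000 UMIs, in 6 clusters (rows, with leading gene and class) of blastoid 3 (left) and blastoid 4 (right). Cluster 5 stands apart for every gene, LUM and DCN extend into clusters 1 and 4 (LUM 48.9% and 41.1% in blastoid 3), and MGP and EGFL6 are near 0 in clusters 1 and 4.

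The UMIs of a gene were spread unevenly over its cells. Blastoid 3 cells with POSTN carried a mean of 9.99 POSTN UMIs and blastoid 4 cells 6.40, but the medians were 4 and 3. Among the 2289 cells of blastoid 3, 65 cells held 50% or more of the POSTN UMIs, and 38 of the 1951 cells did in blastoid 4. For LUM the same count was 236 and 193 cells, with a mean of 6.64 and 7.66 UMIs and a median of 5 in both samples. MFAP4 cells mostly carried 1 UMI, with means of 1.92 and 2.32.

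Cells with 1 of the 6 genes had each of the others in a larger share than cells without it, in thinned cells of both blastoid samples. Of the cells with any of the 6, 452 of 977 in blastoid 3 and 453 of 779 in blastoid 4 had only 1. Among thinned blastoid 3 cells with LUM, 46.5% (exact 95% interval 43.2% to 49.9%) also had DCN, against 3.40% (2.48% to 4.54%) of cells without LUM. In blastoid 4 the values were 33.4% (29.9% to 37.0%) and 2.67% (1.83% to 3.75%). Read the other way, 90.4% and 88.1% of cells with DCN had LUM. DCN thus occurred mostly as a subset of the LUM cells in both samples.

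An odds ratio was computed for each of the 15 pairs, with 0.5 added to each count of the cell table, as a description with no test since cells of 1 sample are not replicates. LUM and DCN had odds ratios of 24.4 in blastoid 3 and 18.0 in blastoid 4. The pairs ranged from 3.78 to 30.3 in blastoid 3 and from 5.43 to 20.6 in blastoid 4, with medians of 14.1 and 11.5. The mean of the medians was 12.8 ± 1.79 (SD, n = 2). The lowest pair of blastoid 3 was MFAP4 with EGFL6 and that of blastoid 4 was LUM with EGFL6.

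POSTN followed DCN closely: it was in 53.0% of blastoid 3 cells with DCN and 6.03% of those without, and in 35.7% and 5.00% in blastoid 4. Of the POSTN cells 87.0% and 84.8% had LUM. MGP cells were few, 45 and 24 after thinning, of which 43 and 22 had LUM, 40 and 18 had DCN, and 37 and 16 had POSTN. MFAP4 was in 24.6% of POSTN cells of blastoid 3 and 22.5% of blastoid 4, against 1.42% and 2.60% of cells without POSTN.

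Part of this co-detection went with cluster 5. Without cluster 5 the median odds ratio was 5.76 in blastoid 3 and 7.12 in blastoid 4, but 4 and 5 of the 15 pairs then had no cell in common and take their ratio from the added 0.5. Over the pairs with a shared cell the medians were 6.001 and 8.29. LUM and DCN kept the odds ratios 15.8 and 14.6 there, whereas EGFL6 no longer went with LUM: 0.344% of the remaining LUM cells of blastoid 3 and none of blastoid 4 had EGFL6, against 0.705% and 0.419% of the cells without LUM. The EGFL6 shares outside cluster 5 rest on few cells. Within cluster 5, the pairs of LUM or DCN with POSTN had odds ratios of 2.91 and 2.37 in blastoid 3 and 1.87 and 4.19 in blastoid 4. Over all pairs there the ratios ran from 0.585 to 6.61 in blastoid 3, with a median of 2.16, and from 0.571 to 7.06 in blastoid 4, with a median of 1.79. They were below 1 for MFAP4 with EGFL6 (0.585) in blastoid 3 and for LUM with EGFL6 (0.571) and LUM with MGP (0.733) in blastoid 4.

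**Figure D3:**
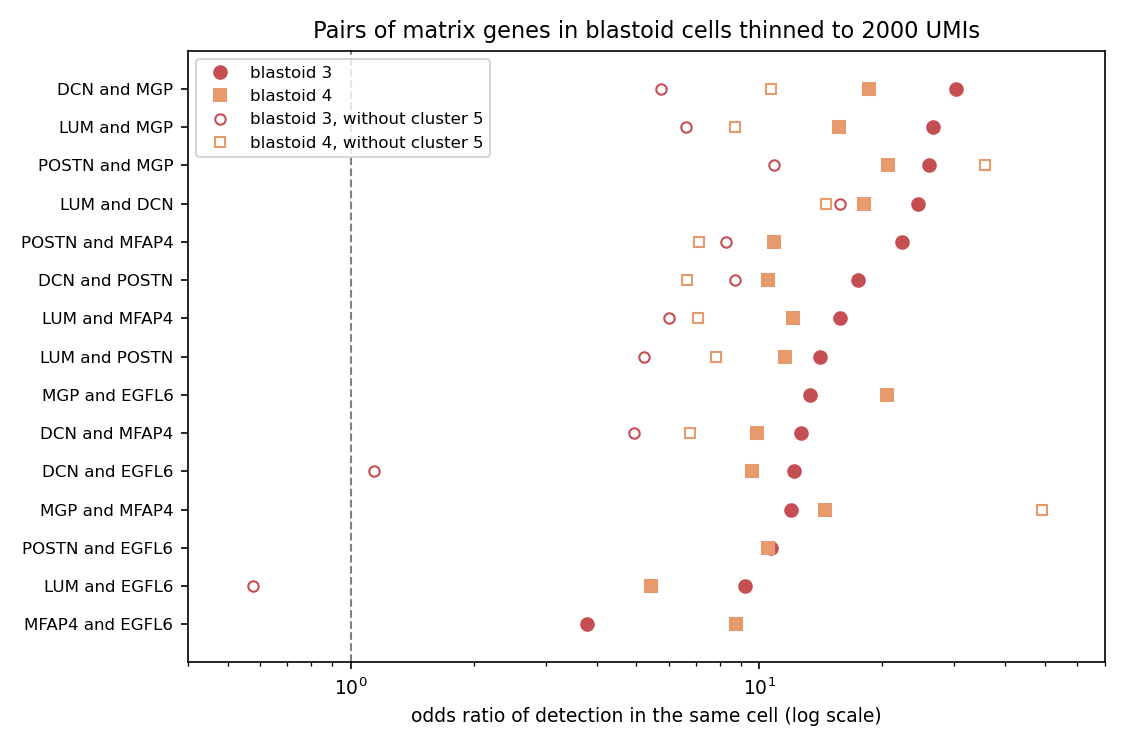
Odds ratio of detection in the same cell for each pair of the 6 genes (log scale) in thinned blastoid cells; filled symbols are all cells, open symbols leave out cluster 5 and are drawn where at least 1 cell had both genes, and the dashed line marks an odds ratio of 1. Filled symbols lie between 3.78 and 30.3, and open symbols of most pairs lie lower.

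Counting the genes per cell, 12.7% of thinned blastoid 3 cells (exact 95% interval 11.4% to 14.2%) and 6.81% of blastoid 4 cells (5.72% to 8.03%) had 3 or more of the 6. No hESC cell had more than 1. In cluster 5 the share with 3 or more was 68.5% in blastoid 3 and 62.5% in blastoid 4, compared with 6.09% and 6.12% in cluster 1, 2.87% and 4.88% in cluster 4 and none in clusters 2, 7 and 8. All 6 genes were found together in 4 cells of blastoid 3 and in none of the 1909 thinned cells of blastoid 4, for which the exact upper limit was 0.193%.

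**Figure D4:**
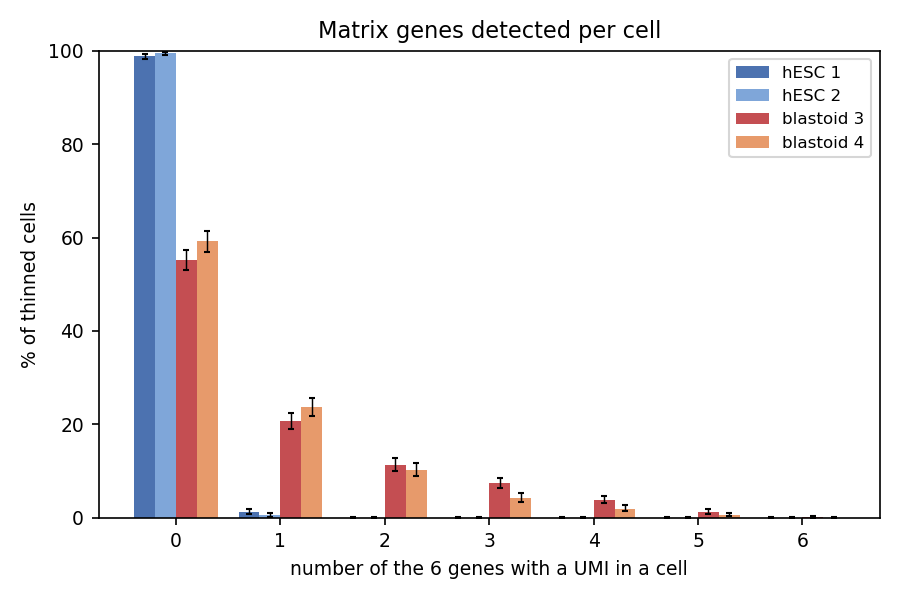
Percent of thinned cells in which 0 to 6 of the 6 genes had a UMI, by sample, with exact 95% binomial intervals. Of the hESC cells, 98.8% and 99.5% had none, against 55.2% and 59.2% of the blastoid cells.

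All 6 genes were lower in blastoid 4 than in blastoid 3 in CPM. With 1 sample on each side there is no test, and the intervals cover counting error only. POSTN was 3.01 times as high in blastoid 3 (exact 95% interval 2.85 to 3.17), EGFL6 2.43 times (2.08 to 2.85) and MGP 2.14 times (1.79 to 2.55). DCN was at 1.79 times, MFAP4 at 1.30 and LUM at 1.17. So 3 of the 6 genes, POSTN, EGFL6 and MGP, were lower by 2-fold or more in blastoid 4, where 4.79% of the 16011 genes with enough UMIs were lower by that much and 1.64% higher. With library sizes scaled by TMM the count was 2, since MGP then had a log2 ratio of -0.989. The median log2 ratio of blastoid 4 to blastoid 3 over those genes was -0.11.

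Cluster 5 was 14.2% of blastoid 3 cells and 6.15% of blastoid 4 cells. Inside cluster 5 the samples were closer for each gene but MFAP4. MGP was at 157 CPM in blastoid 3 and 158 in blastoid 4, EGFL6 at 211 and 194, and DCN at 1085 and 839. LUM (1892 and 2124) and MFAP4 (145 and 216) were higher in blastoid 4 there. For MFAP4 the log2 ratio of blastoid 4 to blastoid 3 was 0.575 in cluster 5, against -0.382 over all cells. POSTN alone of the 6 remained over 1.5 times as high in blastoid 3, at 1916 against 1035. In cluster 1 POSTN stood at 114 and 115 in the 2 samples and in cluster 4 at 70.4 and 59.4, so the samples lay closer in those clusters.

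The cluster levels of blastoid 4 were also weighted by each cluster's share of all UMIs, not of cells, in blastoid 3. Blastoid 4 would then have had 24.0 CPM of MGP, 28.6 of EGFL6 and 192 of DCN. These lie close to the 23.6, 32.4 and 214 of blastoid 3. LUM would have had 627 and MFAP4 40.1, above blastoid 3, and POSTN 195, still below its 324. What set the cluster shares was not tested.

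**Figure D5:**
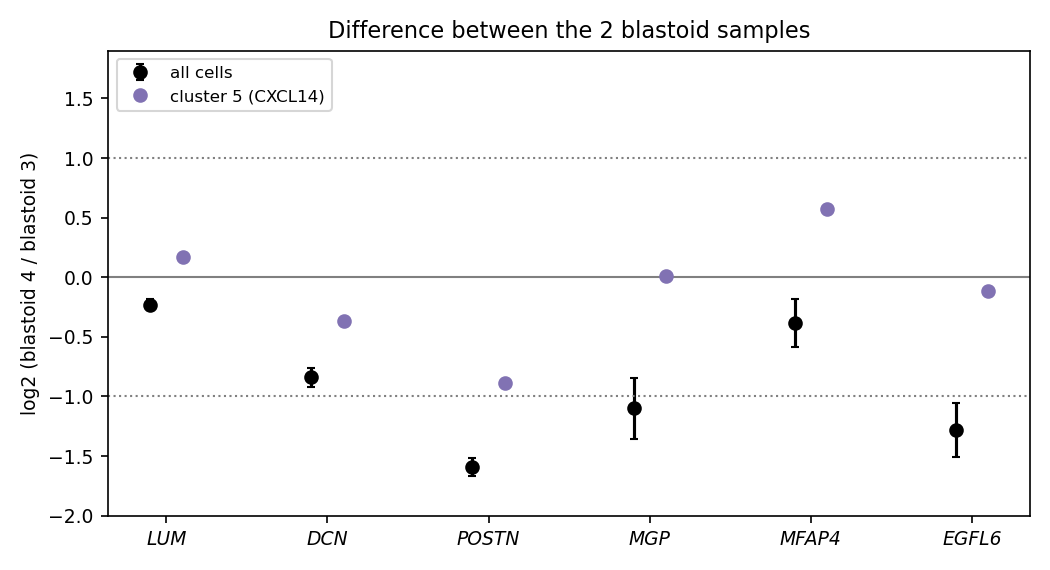
Log2 ratio of blastoid 4 to blastoid 3 in CPM for all cells (black, with exact 95% intervals for counting error) and for cluster 5; dotted lines mark 2-fold. The black points are all below 0, from -0.23 for LUM to -1.59 for POSTN, and the cluster 5 points lie nearer to or above 0.

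The genes most like each member across blastoid cells were ranked among 9907 genes found in at least 5% of cells of both samples, by the smaller of the 2 Pearson correlations of log-scaled values. The cells share library and depth, so these are descriptions. LUM was most like COL3A1, the chain of type III collagen (r = 0.83 in blastoid 3 and 0.81 in blastoid 4), and also resembled DCN (0.71 and 0.67), COL1A1 and SOX6. DCN was most like COL3A1 (0.73 and 0.69), then LUM, POSTN (0.69 and 0.59), COL1A1 and RSPO2.

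POSTN was most like DCN, then COL3A1 (0.62 and 0.52), MFAP4, CHN1 and LUM, and MFAP4 was most like POSTN (0.54 and 0.48), then DCN, COL3A1, CXCL14 and CHST2. For MGP and EGFL6 the order was different. Their closest gene was CXCL14, a chemokine, at 0.46 and 0.42 for MGP and 0.50 and 0.53 for EGFL6. MGP was followed by POSTN, DCN, ADAMTS9 and VCAN, and EGFL6 by CHST2, PDPN, HGF and DCN.

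The other genes of the matrix did not all follow the 6. Of 8 tested small leucine-rich proteoglycans other than LUM and DCN, 4 were called higher in blastoids and 3 lower (median log2 fold change 0.79). FMOD was at least 11.03-fold higher, OGN rose by 1.81 ± 0.41 and BGN by 1.60 ± 0.30, while PODNL1 fell by 2.83 ± 0.44 (log2 fold change ± SE, n = 2 per group; edgeR, adjusted p at most 0.0086). All of these were at low levels: FMOD stood at 3.93 CPM in blastoid 3 and 3.29 in blastoid 4, and BGN at 4.24 and 4.71, scaled by TMM.

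Among 22 other proteoglycan core proteins 9 were called higher and 2 lower (median 0.32). TGFBR3, the betaglycan co-receptor, rose by 2.99 ± 0.24, and GPC4, a glypican, fell by 2.39 ± 0.14. Of 29 enzymes that build or sulfate glycosaminoglycan chains, 11 were higher and 4 lower (median 0.29); CSGALNACT1 rose by 3.41 ± 0.45. DSE, the epimerase that makes dermatan sulfate, the chain type DCN often carries, fell by 0.75 ± 0.13 (log2 fold change ± SE; edgeR, adjusted p = 0.0023). DSE was chosen after its values were seen.

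Of 24 fibrillar collagens and processing proteins, 18 were higher and 2 lower (median 1.23). COL3A1 had no UMIs in the hESC cells and was at least 2203-fold higher in blastoids (edgeR, adjusted p = 1.5e-05); COL5A1 rose by 4.35 ± 0.22. Of 25 matricellular and adhesive glycoproteins 17 were higher and 3 lower (median 1.75, or 1.71 with genes at 0 in hESCs at their limit). TNC, another matricellular protein, rose by 5.99 ± 0.33, and THBS2 fell by 3.70 ± 0.35 (log2 fold change ± SE; edgeR, adjusted p at most 1.7e-04).

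Around MFAP4, 11 of 21 microfibril and elastic fibre genes were higher and 1 lower (median 0.54), with FBN1, the main microfibril protein, up by 3.60 ± 0.25. Elastin itself (ELN) did not pass, at -0.76 ± 0.37 (edgeR, adjusted p = 0.12; chosen after its values were seen). Around MGP, 6 of 12 genes of vitamin K carboxylation and its partners were higher and 2 lower (median 0.38). The carboxylase GGCX, which activates MGP, did not pass (0.08 ± 0.14; edgeR, adjusted p = 0.66; also chosen after its values were seen), whereas BMP2, a ligand that MGP binds, rose by 5.81 ± 0.24 and BMP4 by 4.80 ± 0.17.

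Of 20 matrix receptors 13 were higher and 2 lower (median 0.87). ITGA8, a subunit of an integrin that binds EGFL6, had a level at least 51.4-fold higher in blastoids (edgeR, adjusted p = 1.7e-05) at 16.9 and 16.6 CPM in blastoid 3 and 4, and DDR2, a fibrillar collagen receptor, rose by 5.79 ± 0.22. In the TGF-beta list 7 of 13 were higher and 2 lower (median 1.43), with LRRC32 up by 6.11 ± 0.27 and TGIF1 down at -1.50 ± 0.16. Of 14 genes of matrix turnover 7 were higher and 3 lower (median 0.40), with ADAMTS9 up by 5.77 ± 0.28 and MMP9 at -1.33 ± 0.32.

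The lists of other cell types differed between the samples as well. The summed trophectoderm/amnion list stood at 1431 CPM in blastoid 3 and 2257 in blastoid 4, against 365 and 339 in hESC 1 and 2, with 8 of its 14 genes at 0 in both hESC samples. The mesoderm/mesenchyme list stood at 1813 and 1384, against 285 and 317, and the cardiac or smooth muscle list at 408 and 354, against 16.98 and 18.5. Their part in the differences of the 6 genes was not tested. The summed pluripotent list stood at 4485 and 4639 CPM in hESC 1 and 2, against 569 and 632 in blastoid 3 and 4, and 4 of 8 neuroectoderm genes were in no table.

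Inside clusters 1, 4, 5 and 7, thinned cells with 3 or more of the 6 genes were set beside those with fewer (278 against 1447 cells in blastoid 3 and 130 against 1023 in blastoid 4). Fibrillar collagens and their processing had 4.01 and 3.18 times as many UMIs per cell in them, matrix turnover 2.40 and 2.07 times, and other proteoglycan core proteins 2.13 and 2.10 times. The TGF-beta list was nearly level, at 1.04 and 1.10 times. G2 and M phase genes were at 0.79 and 0.76 times, and S phase genes at 0.67 and 0.75 times, in the cells with 3 or more of the matrix genes. Of the cells with 3 or more, 222 in blastoid 3 and 75 in blastoid 4 were in cluster 5. The ratios therefore also carry differences between clusters. They are over cells and have no test.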

How the data were processed

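The 4 deposited tables hold UMI counts per gene and barcode from 10x 3′ v3.1 libraries of polyadenylated RNA. They came from Cell Ranger with GRCh38, per the submitters' processing notes; versions, annotation and strand setting are not given in the sources used here. By their values, the deposited barcodes have 201 to 4994 genes and under 20% mitochondrial UMIs. These limits remove the shallowest barcodes and those with the most genes, which can lower the number of cells counted in deep samples.

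Cells needed at least 500 genes, and no other cell was removed. Counts were summed per sample, scaled by TMM, filtered with filterByExpr and tested with edgeR 4.0.16 (quasi-likelihood, Benjamini-Hochberg over all tested genes, threshold 0.05, R 4.3.3); the test was checked on simulated data. DESeq2 1.42.0 was an alternative. Clusters came from scanpy 1.11.5 (2000 variable genes without the matrix lists, 30 principal components, 15 neighbours, Leiden resolution 0.5). A cluster was named by markers detected in 10% of its cells, at least 3 of a type. Scrublet marked 27, 3, 11 and 35 cells of hESC 1, hESC 2, blastoid 3 and blastoid 4, or under 2% of each, so doublets may remain; they were kept and left out as an alternative. Cells were thinned to 2000 UMIs. A log2 ratio of 1 or more (2-fold) between the blastoid samples was counted among genes with at least 20 UMIs. Intervals are exact (Poisson or Clopper-Pearson, 95%) and cover counting error only.

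The 6 genes, the gene lists and the tests were chosen with earlier results of these data known. Named genes are the 6, the 5 genes most like each, and up to 3 higher and 2 lower called genes per list by size of log2 fold change; exceptions are named as such, and 1 result is not reported here. Alternatives were other scaling, filters, cell minimums, thinning depths, cluster settings, no doublet calls and each sample left out.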

Additional observations from a re-analysis of the deposited data

Results flagged for a closer look

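Barcodes with fewer than 500 genes were outside the comparisons, and some of them held UMIs of the matrix genes in blastoids at a level above that of the hESC samples. Blastoid 3 had 1198 such barcodes, with 160 LUM UMIs, 36 of DCN, 41 of POSTN and 5 of MFAP4. Blastoid 4 had 120, with 15 LUM UMIs and 4 DCN UMIs. In the 3676 and 4400 such barcodes of hESC 1 and hESC 2 the only POSTN UMI was 1 in hESC 2, there was no MFAP4 UMI, and LUM and DCN have no row. LUM stood at 352 CPM in these barcodes of blastoid 3 and 280 in those of blastoid 4. Of the 129 blastoid 3 barcodes with LUM, 117 were shared with blastoid 4, and 115 of these had LUM in the blastoid 4 copy as well. In the blastoid 3 barcodes that blastoid 4 does not share, 17 LUM UMIs remained, at 190 CPM.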

How the results depend on the processing

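All 6 genes were called higher in blastoids in each alternative run that kept all 4 samples, DESeq2 among them. Requiring a log2 fold change past 1 could not change this, since the smallest, that of EGFL6, was 2.75. With a sample left out the lowest log2 fold change of the 6 was 2.07, for EGFL6 without blastoid 3. All 6 also had the larger detected share in blastoids in each alternative run. Leaving out a sample could not change that result, since both blastoid shares lay above both hESC shares. The number of genes called over the whole table, 8227, was 4882 when a log2 fold change past 1 was required, and 4424 (without hESC replicate 1) to 10033 (without blastoid replicate 4) with each sample left out. Without TMM 63.1% of the 8152 calls were higher, against 54.3%. Where leaving out a sample leaves 1 in a group, that sample is assumed to vary like the other group. The count of 3 genes at 2-fold between the blastoid samples was 2 with TMM-scaled library sizes (MGP at -0.989), 1 in clusters 1, 4, 5 and 7 together and 0 in cluster 5. In clusters 1, 4, 5 and 7 together the log2 ratio of blastoid 4 to blastoid 3 turned to 0.12 for LUM and 0.028 for MFAP4; in cluster 5, an alternative chosen after seeing the data like the removal of shared barcodes, it turned to 0.167 for LUM, 0.008 for MGP and 0.575 for MFAP4. The median odds ratio, 12.8, was 10.9 without thinning, 20.6 when 2 UMIs were required, 10.5 in clusters 1, 4, 5 and 7, 6.44 without cluster 5 and 7.145 without it over pairs with a shared cell (both added after seeing the data), and 11.5 and 14.1 with either blastoid sample left out. The UMI share of clusters 1, 4, 5 and 7, 96.7%, was 72.9% without cluster 1 (added after seeing the data). With other cluster settings or without doublet calls, the share in mesoderm/mesenchyme-like clusters, those like cluster 1 counted in, was 96.4% to 97.2%. With a sample left out it was 94.98% or 98.5%. These are the values of the sample that remained, so they do not test how stable the share is. No paired analysis was possible because the hESC samples are numbered 1 and 2 and the blastoid samples 3 and 4. With 2 samples per group, and few cells with MGP or EGFL6, their pairs and cluster shares are the least precise.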
